A study of Mus musculus with 8 samples.

Results

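The genes described here encode calcium channels and the machinery of store-operated calcium entry. They are Cacna1h and Cacng7, the sensors Stim1 and Stim2, the pore subunits Orai1, Orai2 and Orai3, and the inositol trisphosphate receptors Itpr1, Itpr2 and Itpr3. Every probe that the array design names for one of these 10 genes was taken, which gave 19 of the 55681 probes on the array, and 17 of them passed the filter on dim probes. Cacna1h and Cacng7 were chosen by their processed intensity, which was high on the IgE arrays and low on the control arrays, so their values are given as a description without a test. The other 8 genes were taken as whole families.

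In B cells, ligation of the antigen receptor activates phospholipase C, which makes inositol trisphosphate. That messenger opens its receptors in the membrane of the endoplasmic reticulum and lets stored calcium out. STIM proteins sense the emptied store and open ORAI channels in the plasma membrane, which is the main route of calcium entry in lymphocytes. Voltage-gated calcium channels, best known from nerve and muscle, open on depolarisation instead.

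The cells were A20, a mouse B lymphoma line, in 4 forms with 2 one-colour arrays each. They were untransfected cells, a stable transfectant with membrane IgM, and 2 stable IgE transfectants, clone 18 and clone 41. All forms share the A20 background and were grown in RPMI1640 with 10% serum and 50 µM beta-mercaptoethanol. Each IgE line is 1 clone, so a property of the clone and an effect of IgE cannot be told apart. Nothing in the labels says that the arrays of one line were separate cultures. The p-values therefore rest on a spread between samples that may be technical. All 8 arrays lay on 1 slide with 1 scan date. Line and slide column cannot be told apart, since each column held the arrays of a single line.

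The share of probe spots well above background was 49.7% to 58.9% over the arrays, and the 75th percentile of the processed intensity was 472 to 522 on the IgE arrays and 584 to 663 on the control arrays. Each array was therefore scaled to that percentile, and "scaled level" below means log2 intensity over it. All 8 B cell markers examined were well above background on every array. Their summed processed intensity was 124000 to 158000 on the IgE arrays and 162000 to 261000 on the control arrays. It was not scaled, so the difference in array brightness enters these sums. The probe for the constant region of the mu chain had its highest scaled levels, 4.88 and 4.64, on the IgM arrays, and ranged from 3.65 to 4.30 on the other arrays. Its difference between IgM and untransfected cells, 0.62, did not pass the test (limma adjusted p = 0.203). Between the IgE and control lines it differed by -0.61 ± 0.13 (adjusted p = 0.0253). The probe for the epsilon chain gene had scaled levels of -1.21 and -0.31 on the untransfected arrays, 0.09 and 1.02 on the IgM arrays, 0.49 and 0.36 in clone 18, and -0.13 and 0.40 in clone 41. Its highest level was on an IgM array, above every IgE array, which goes against the line labels if the probe reads the transfected chain. It differed by 0.38 ± 0.29 between the IgE and control lines (adjusted p = 0.404). Whether these probes match the transfected sequences is not given in the sources used here.

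The probes are 60-base oligonucleotides in the sense of the transcript, and the first 30 bases of those on which the results turn are shown to identify what was measured. Of the Cacna1h probes, the first had the largest difference. It lies 58.6 kb from A_55_P1986591 and 57.6 kb from A_52_P588378, and those lie close to each other.
Cacna1h A_55_P1986596: caaagctaaggggaggggaggggcaaagca
Cacna1h A_55_P1986591: cttcttctgcctcgggcaaaccacgcggcc
Cacna1h A_52_P588378: tctctaccttgtgtgtttaactgtataaat
Cacng7 A_55_P2117400: ggggggcctggctctgttatttaccgtgta
For the store-operated genes, the Stim1 pair is shown because both probes read nearly the same stretch, with the bases of their shared run in capitals. The Orai1 pair is shown because its probes disagreed.
Stim1 A_55_P1969750: agggctcttGTGGAGCCCTGGGCAAGGATG
Stim1 A_55_P2022342: GTGGAGCCCTGGGCAAGGATGTTATATTTG
Orai1 A_66_P106072: acaagcattctcccactgaattctactcca
Orai1 A_55_P2147276: tacttggagattttcttctgtgagaataag
Itpr2 A_55_P2008061: gccatttagctcccagaacaatccgtaact
Itpr3 A_51_P104897: tacatgtcctgtgtcctggggactaatgtg
The shared run of the Stim1 probes is 51 of 60 bases long, so they do not count as separate measurements. The longest run shared by the Orai1 probes is 5 bases.

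A probe was called at a Benjamini-Hochberg adjusted p under 0.05 in limma and a difference of at least 2-fold. Between the IgE lines and the control lines, 4 of the 17 member probes were called, beside 8.99% of all 29140 probes tested. All 4 were higher (3.62% of all probes were called higher and 5.37% lower) and belonged to Cacna1h or Cacng7, which had been chosen for that difference. None of the 13 Stim, Orai and Itpr probes was called by limma, and 6 of them had an unadjusted p under 0.05, as had 33.6% of all probes. The 4 IgE arrays did not overlap the 4 control arrays for 5 of those 13 probes, 3 of them higher and 2 lower, beside 24.1% of all probes tested, 14.2% higher and 9.83% lower. The median difference of the 13 probes was 0.09 on the log2 scale, and that of all probes was 0.05.

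Cacna1h encodes the pore subunit of a T-type channel, a voltage-gated channel that opens at small depolarisations. Its brightest probe, A_55_P1986596, lies on the minus strand at chr17:25511235-25511294 (mm9). Its processed intensity was 32.7 and 41.2 on the untransfected arrays, 68.7 and 35.4 on the IgM arrays, 2900 and 3030 on the clone 18 arrays, and 1360 and 1130 on the clone 41 arrays. Every IgE array lay far above every control array, and clone 18 lay above clone 41. The scaled level was 56.8-fold higher in the IgE lines (5.83 ± 0.21 on the log2 scale, SE). Clone 18 was 103-fold above untransfected cells and 76-fold above IgM cells. Clone 41 was 42.5-fold and 31.3-fold above the same lines, and was itself 2.42-fold below clone 18 (-1.28 ± 0.30).

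Both other Cacna1h probes were also higher in the IgE lines, by smaller amounts. Probe A_55_P1986591, designed on transcript variant 2, lies at chr17:25569818-25569877, 58.6 kb from the brightest probe. It read 39.3 and 34.7 in untransfected cells, 38.3 and 25.4 in IgM cells, 108 and 100 in clone 18, and 58.4 and 51.8 in clone 41. The sides did not overlap, and the difference was 1.49 ± 0.14 (2.81-fold). Probe A_52_P588378, at chr17:25568825-25568884, was not well above background on any control array, where it read 4.16 to 5.42. It read 68.5 and 57.8 in clone 18 and 36.6 and 34.8 in clone 41, which is at least 2.72-fold higher in the IgE lines. On all 3 probes the arrays of clone 18 were brighter than those of clone 41. The probes gave differences of unequal size, and nothing in the files says which transcripts the cells made.

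Cacng7 encodes a gamma subunit of the family that includes regulators of voltage-gated channels and of AMPA-type glutamate receptors. Probe A_55_P2117400, on the plus strand at chr7:3367751-3367810 (mm9), read 72.0 and 55.1 in untransfected cells and 66.4 and 67.0 in IgM cells. It read 690 and 577 in clone 18, and 496 and 951 in clone 41. All IgE arrays lay above all control arrays, and the clones overlapped each other. The difference was 3.68 ± 0.25 (12.8-fold), and clone 41 differed from clone 18 by 0.10 ± 0.35. Probe A_55_P2117407, 1.31 kb away, was well above background on 2 of the 8 arrays and did not pass the filter. It read 7.82 to 26.5 on the control arrays and 20.5 to 36.2 on the IgE arrays.

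**Figure D1:**
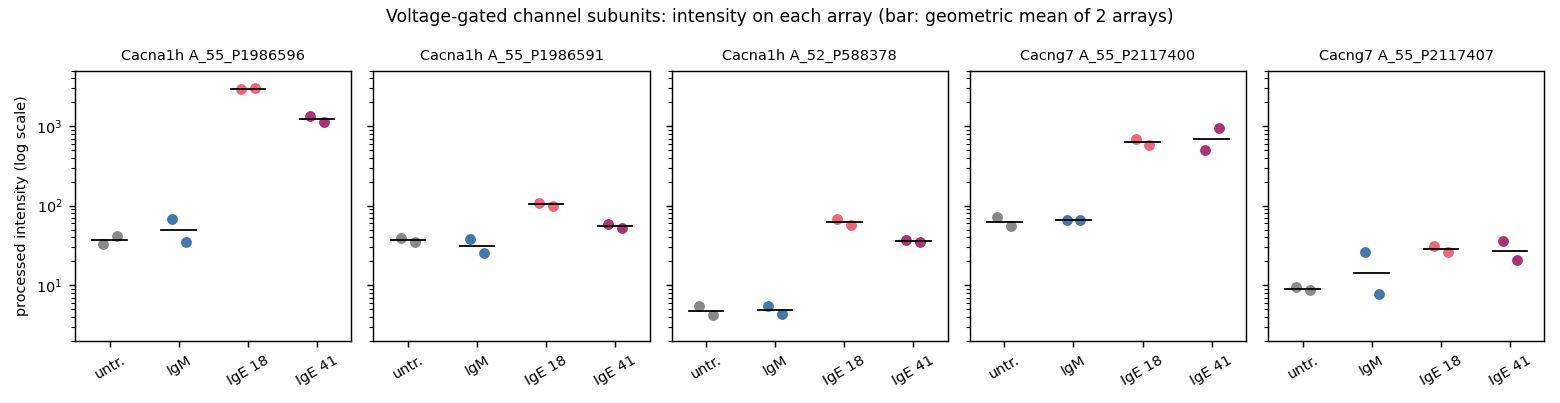
Processed intensity (log axis) of the 3 Cacna1h and 2 Cacng7 probes on each of the 8 arrays, with a bar at the geometric mean of the 2 arrays of a line. For Cacna1h A_55_P1986596 the IgE arrays run from 1130 to 3030 and the control arrays from 32.7 to 68.7, and the rightmost probe failed the filter.

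The size of these differences depended on how the intensities were processed. With normexp background correction the brightest Cacna1h probe differed by 4.47 and the Cacng7 probe by 2.71, and in the authors' deposited table by 4.91 and 3.02. Probe A_52_P588378 moved most, from 3.64 to 1.18 with normexp and 1.48 in the deposited table, and its normexp value is below the lower bound given above. Probe A_55_P1986591 of Cacna1h fell short of 2-fold under both (0.83 and 0.97). In these bulk samples a gene expressed by more of the cells and a gene expressed more strongly in each cell cannot be told apart.

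The calcium sensors of the endoplasmic reticulum showed no difference between the sides that passed the test. Stim1, whose product opens ORAI channels when the store empties, had scaled levels of 3.04 and 3.49 in untransfected cells, 3.48 and 3.31 in IgM cells, 3.14 on both clone 18 arrays, and 3.24 and 3.11 in clone 41 (probe A_55_P1969750). The sides overlapped, and the difference was -0.17 (95% interval -0.52 to 0.17, limma adjusted p = 0.44). The overlapping second probe gave -0.18 (adjusted p = 0.442). Stim2, a sensor that responds to smaller losses of stored calcium, differed by 0.09 (interval -0.35 to 0.54, adjusted p = 0.767). Its lowest and highest scaled levels, -2.43 and -1.80, were both on IgM arrays. These intervals stay within 2-fold in either direction for Stim1 and Stim2. They rest on the spread between the arrays of a line and do not cover the spread between lines or clones.

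Among the pore subunits, Orai1 gave unlike values on its 2 probes. Orai1 forms the main store-operated channel of lymphocytes. Probe A_66_P106072, at chr5:123480377-123480436, had scaled levels of -1.90 to -1.64 on the control arrays and -2.18 to -1.64 on the IgE arrays, and differed by -0.08 (interval -0.47 to 0.30, adjusted p = 0.757). Probe A_55_P2147276, 0.533 kb away, read -0.50 and -1.77 in untransfected cells, -1.91 and -0.98 in IgM cells, -2.73 and -2.83 in clone 18, and -2.80 and -1.40 in clone 41. Replicate 2 of clone 41 lay among the control arrays on this probe. The difference was -1.15 (interval -2.15 to -0.15) and did not pass the adjusted test (adjusted p = 0.106). The arrays of a line differed by more than 1 log2 unit for untransfected cells and for clone 41.

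Orai2, which can join ORAI1 in the channel, passed the adjusted p on 1 of its 2 probes and was not called. Probe A_55_P2075385 had scaled levels of 0.07 and 0.14 in untransfected cells, -0.29 on both IgM arrays, 0.33 on both clone 18 arrays, and 0.51 and 0.31 in clone 41. The sides did not overlap, and the IgM arrays were the lowest. The difference was 0.46 ± 0.11 (1.38-fold, adjusted p = 0.0362), under the 2-fold threshold. The adjusted p was 0.0771 to 0.131 without any single array of IgM, clone 18 or clone 41, 0.0783 without the filter on dim probes and 0.0659 when line was fitted as a random block. The brighter Orai2 probe differed by 0.29 ± 0.17 (adjusted p = 0.285), and its sides overlapped. The 3 probes of Orai3, the third pore subunit, differed by 0.11, 0.25 and 0.38 with adjusted p values of 0.549, 0.241 and 0.0706. The last of them, A_55_P2020656, had scaled levels of -1.73 to -1.34 on control arrays and -1.25 to -1.16 on IgE arrays, which did not overlap.

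None of the inositol trisphosphate receptors was called between the sides. Itpr2 encodes the receptor type with the highest affinity for inositol trisphosphate. Its probe A_55_P2008061, at chr6:146060005-146060064, had scaled levels of 4.08 and 4.49 in untransfected cells, 3.87 and 3.64 in IgM cells, 3.01 and 3.03 in clone 18, and 3.17 and 3.24 in clone 41. Every IgE array lay below every control array, and IgM cells lay between untransfected and IgE cells. The difference between the sides was -0.91 ± 0.14 (1.88-fold, adjusted p = 0.00686), past the adjusted threshold and short of 2-fold. Against untransfected cells it was called in clone 18 (-1.26, adjusted p = 0.0125) and in clone 41 (-1.08, adjusted p = 0.0262). Against IgM cells it was not called (-0.73 with adjusted p = 0.0674, and -0.55 with adjusted p = 0.157). These comparisons share their control arrays. The clone 41 call was lost without untransfected replicate 2 (-0.88, adjusted p = 0.0511) and without any array of either clone (adjusted p = 0.0649 to 0.151). It was also lost with normexp background correction (-0.97), without the filter on dim probes (adjusted p = 0.0829) and in the authors' deposited table (-0.93, adjusted p = 0.0671). The clone 18 call was lost without replicate 1 or 2 of clone 18 (adjusted p = 0.0951 and 0.0804). The pooled difference passed 2-fold without untransfected replicate 1 (-1.01, adjusted p = 0.00382). A second Itpr2 probe was not well above background on any array.

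Itpr3 encodes a receptor type found mainly in non-excitable cells. Its probe A_51_P104897, at chr17:27259102-27259161, is printed on 10 spots of each array, whose log2 SD within an array was 0.027 to 0.054. Scaled levels were 3.33 and 3.04 in untransfected cells, 3.44 and 3.32 in IgM cells, 3.91 and 4.0 in clone 18, and 3.70 and 3.82 in clone 41. The sides did not overlap, and the difference was 0.58 ± 0.13 (1.49-fold, adjusted p = 0.0249). It was short of 2-fold, and the adjusted p was 0.0721 to 0.0894 without any single array of IgM, clone 18 or clone 41 and 0.0634 without the filter on dim probes. The spread between spots was below the spread between the untransfected arrays, which differed by 0.29.

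Itpr1, the receptor type best known from Purkinje neurons, had scaled levels of 3.5 and 2.53 in untransfected cells, 2.36 and 2.39 in IgM cells, 2.08 and 2.28 in clone 18, and 2.19 and 2.02 in clone 41. The IgE arrays were the lowest, and untransfected replicate 1 stood apart at the top. The difference was -0.55 ± 0.22 (adjusted p = 0.132). It was -0.31 (adjusted p = 0.118) without untransfected replicate 1 and -0.80 (adjusted p = 0.00978) without untransfected replicate 2.

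**Figure D2:**
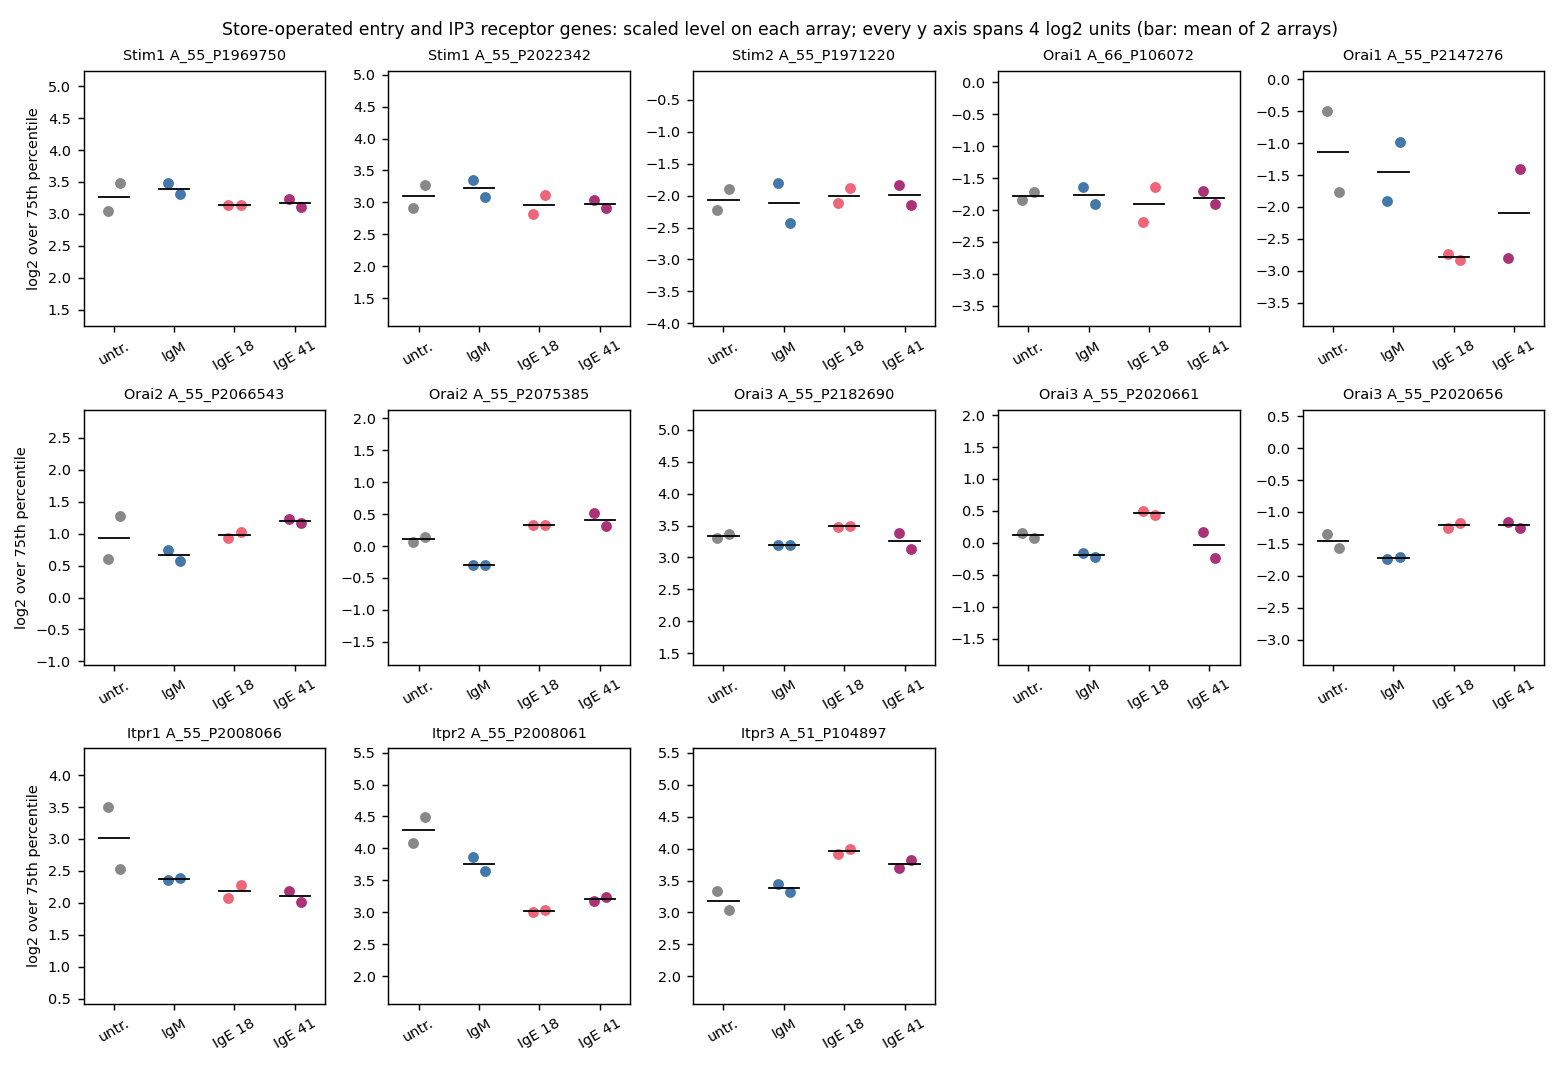
Scaled level (log2 over the array's 75th percentile) of the 13 Stim, Orai and Itpr probes that passed the filter on each of the 8 arrays, with a bar at the mean of the 2 arrays of a line and a y axis of equal span in every panel. For Itpr2 the IgE arrays run from 3.01 to 3.24 and the control arrays from 3.64 to 4.49, and for Itpr3 from 3.70 to 4.0 and from 3.04 to 3.44.

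Comparisons of single lines share arrays and are given side by side. Of the 13 family probes, Itpr2 alone was called in clone 18 against untransfected cells (7.44% of all probes) and in clone 41 against untransfected cells (5.51%). Against IgM cells limma called none in clone 18 (8.84% of all probes) or clone 41 (7.23%), with 5 and 3 unadjusted p values under 0.05 (25.2% and 22.7% of all probes). Between the control lines, IgM against untransfected, none was called by limma (1.81% of all probes), and 2 had an unadjusted p under 0.05 (14.6% of all probes). Between the IgE clones none was called either (0.261% of all probes). There 1 of the 13 had an unadjusted p under 0.05 (5.57% of all probes), the Orai3 probe A_55_P2020661, which was lower in clone 41 by -0.49 ± 0.19 (adjusted p = 0.823).

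**Figure D3:**
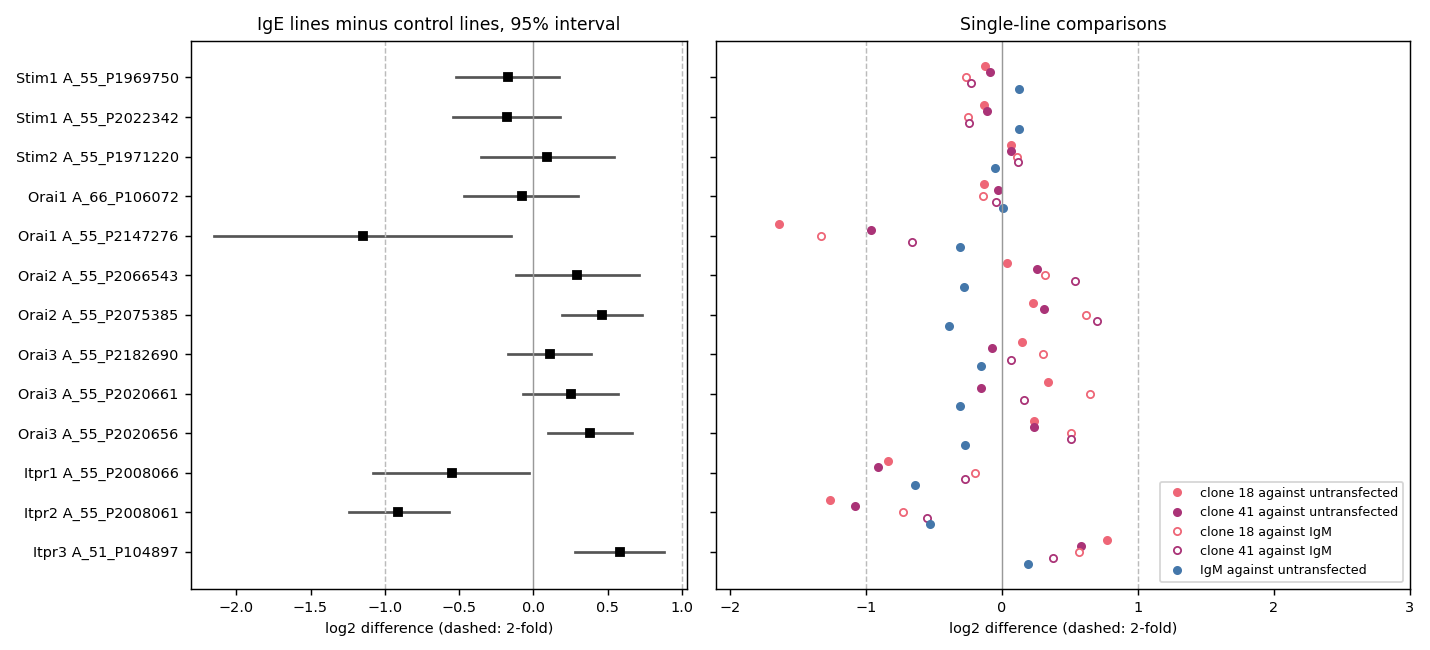
Difference in scaled level (log2) of the 13 Stim, Orai and Itpr probes, with the 95% interval for the IgE lines minus the control lines on the left and the single-line comparisons as points on the right. The widest interval is that of Orai1 A_55_P2147276 (-2.15 to -0.15), and Itpr2 lies at -0.91 and Itpr3 at 0.58.

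Of 154 other calcium genes listed by function, 153 were on the array and 111 were tested, each by its brightest probe. In the IgE lines 3 were called higher (2.7% of those tested, beside 3.41% of all 19973 genes) and 13 lower (11.7%, beside 5.55%). The median difference of the list was -0.07, and that of all genes 0.04. The 5 tested genes of phospholipase C, the 7 regulators of store-operated entry, the 7 calcium pumps, the 11 genes of mitochondrial calcium uptake and the 10 calcium buffers held no call, with 3, 3, 2, 5 and 1 unadjusted p values under 0.05 in limma, beside 33.9% of all genes. Some of these genes passed the adjusted p and fell short of 2-fold. Among them were Esyt1 (0.98, adjusted p = 0.00178), Letm1 (-0.98, adjusted p = 0.00882) and Plcg1 (-0.87, adjusted p = 0.00347). Esyt1 and Plcg1 were each called in 2 of the 4 comparisons of an IgE clone with a control line.

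Several other subunits of voltage-gated channels were called, mostly lower. Cacna1s, the pore subunit of the skeletal muscle L-type channel, read 11900 to 21600 on the control arrays, 3640 and 3980 in clone 18, and 2240 and 1950 in clone 41. It fell by 2.23 ± 0.18 on the log2 scale (adjusted p = 0.00044), and a second probe gave -2.16. Cacna1d, another L-type pore subunit, differed by -2.0 ± 0.15 (adjusted p = 0.000343), and of the IgE arrays only those of clone 41 were well above background. Its second probe gave -1.64 and was not called (adjusted p = 0.0883). Cacnb1, a cytoplasmic beta subunit that helps pore subunits reach the membrane, was not well above background on any control array and read 232 and 191 in clone 18 and 146 and 135 in clone 41. It passed the filter on dim probes through the IgE lines alone, so its difference is given as a description without a test. It was at least 9.87-fold higher in the IgE lines. That bound, 3.3 on the log2 scale, holds for the main processing, and the lowest difference over the alternatives was 1.92. Cacnb3, another beta subunit, and Cacna2d3, an auxiliary alpha2delta subunit, were not well above background on any IgE array. They were at least 1.71-fold (adjusted p = 0.0498) and at least 1.83-fold (adjusted p = 0.00271) lower there. With normexp background correction the differences were -0.23 and -0.50 on the log2 scale, smaller than these bounds. Cacnb3 read 78.5 and 77.5 in untransfected cells but 36.4 and 12.8 in IgM cells, and its difference from the IgM line was -0.38 for clone 18 (adjusted p = 0.652) and -0.13 for clone 41 (adjusted p = 0.907). Cacng5, a gamma subunit, was 2.26-fold higher (1.18 ± 0.29, adjusted p = 0.036).

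Among genes around the release of stored calcium, those called were lower. Inpp5a, a phosphatase that removes inositol trisphosphate, read 164 to 562 on control arrays and 30.7 to 46.7 on IgE arrays, a difference of -2.64 ± 0.44 (6.25-fold, adjusted p = 0.00948). Erlin1, part of a complex that targets activated inositol trisphosphate receptors for degradation, read 7660 to 16000 on control arrays and 3480 to 4290 on IgE arrays (-1.18 ± 0.15, adjusted p = 0.00292). Ryr1, a calcium release channel of muscle, differed by -1.03 ± 0.28 (adjusted p = 0.0476), with untransfected replicate 1 at 3000 and the other arrays at 314 to 1200. Against IgM cells Ryr1 was -0.37 in clone 18 and 0.10 in clone 41, neither of them called.

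Exchangers that move calcium against sodium differed in both directions. Slc24a3, a potassium-dependent sodium-calcium exchanger, read 3310 to 4150 on the IgE arrays. On the control arrays it read 175 in untransfected replicate 1 and 6.81 to 13.5 on the other 3, which were not well above background. The difference was 7.76 ± 0.72, and 5.39 at the lowest over the alternatives. Slc24a3 passed the filter through the IgE lines alone, so no test is given. Slc8a2, a plasma membrane sodium-calcium exchanger, read 143 to 1010 on the control arrays and 9.38 to 33.3 on the IgE arrays, of which 1 was well above background (-4.05 ± 0.67, adjusted p = 0.00882). The size of that difference rests on dim IgE arrays, and over the alternatives it shrank to -1.88 at the least. Among cation channels, the endolysosomal channel genes Mcoln2 (-1.63 ± 0.20, adjusted p = 0.0027) and Mcoln3 (-1.82 ± 0.37, adjusted p = 0.0191) and the calcium-activated sodium channel gene Trpm4 (-1.30 ± 0.19, adjusted p = 0.00584) were lower. Mcoln3 was well above background on only 1 IgE array, and with normexp background correction it differed by -0.39 (adjusted p = 0.151). Downstream, the calmodulin kinase gene Camk2a (-1.69 ± 0.15, adjusted p = 0.000649) and the calcineurin subunit gene Ppp3cc (-1.15 ± 0.29, adjusted p = 0.0401) were lower. Their other tested probes gave -0.92 (adjusted p = 0.0356) and -0.79 (adjusted p = 0.0871), and neither was called.

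Of these 16 genes, 7 were called in all 4 comparisons of an IgE clone with a control line, 5 in 2 of them, and Ryr1, Cacnb3, Cacng5 and Ppp3cc in 1. Cacnb3, Cacna2d3, Slc8a2 and Mcoln3 passed the filter through the control lines alone, so their p-values are not independent of the filter. Of the 16 calls, 5 did not hold when single arrays were left out. Ryr1 and Cacng5 lost theirs when any array except untransfected replicate 2 was left out, Ppp3cc when any except untransfected replicate 1 was, and Cacnb3 when any except IgM replicate 2 was. Mcoln3 lost its call without IgM replicate 1, clone 18 replicate 2 or either array of clone 41. The same 5 were lost when line was fitted as a random block (adjusted p = 0.0533 for Mcoln3 to 0.223 for Ryr1). Cacna1d, Cacna2d3 and Trpm4 kept theirs without each array and lost them with normexp background correction (-0.86, -0.50 and -0.64).

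**Figure D4:**
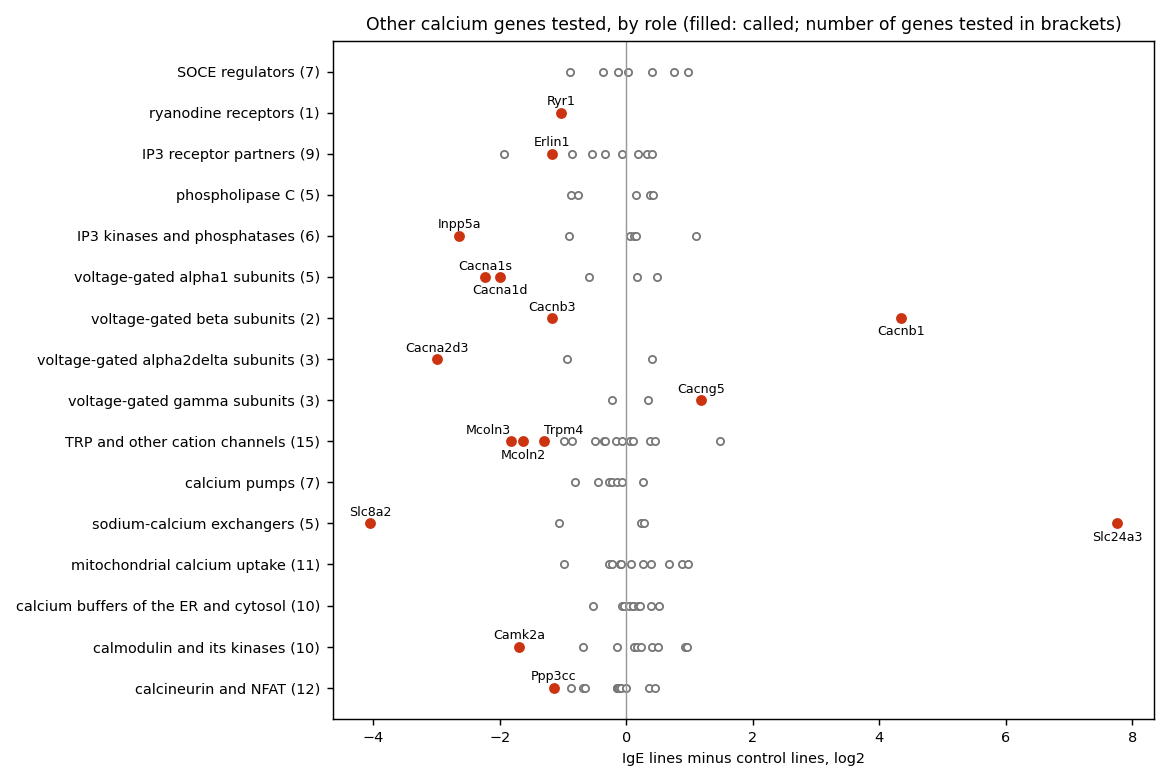
Difference between IgE and control lines (log2) of the 111 other calcium genes tested, by role, with called genes filled and named. Slc24a3 lies farthest right at 7.76 and Slc8a2 farthest left at -4.05, and most genes lie near 0.

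The genes whose scaled level over the 8 arrays was most like that of Cacna1h, among 10928 genes with a symbol and well above background on all arrays, were Fubp3 (Pearson r 0.998), Arhgap30 (0.997), Fcgr3 (0.995), Ikzf4 (0.994) and Cnot4 (0.992). For Cacng7 they were Lrrc40 (0.995), Basp1 (0.994), Txndc16 (0.994), Gxylt2 (0.989) and Ext1 (0.988). The r between Cacna1h and Cacng7 was 0.965. The arrays fall into the IgE and control sides for all of these genes, so the coefficients mostly describe that split. The genes differ in size of change, from 0.32 on the log2 scale for Fubp3 to 3.96 for Basp1.

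Genes beside Cacna1h and Cacng7 mostly differed less than they did. Within 200 kb of the Cacna1h probes, 17 of 27 neighbouring probes were tested and 1 was called, the noncoding RNA gene 2810468N07Rik (now Cerox1), 201 kb from the brightest Cacna1h probe. It was higher in the IgE lines (4.94 ± 0.68, and 2.24 at the lowest over the alternatives), with 1 of 4 control arrays well above background. It passed the filter through the IgE lines alone, so no test is given. The probe for the tryptase gene Tpsg1, starting 0.036 kb from that Cacna1h probe, was not well above background on any array. The nearest tested neighbour, the mast cell tryptase gene Tpsb2, differed by -0.03 ± 0.16 (adjusted p = 0.919). Around Cacng7, 11 of 26 neighbouring probes were tested. Myadm, a membrane protein gene 69.3 kb away, was higher (2.55 ± 0.22, adjusted p = 0.000661). The gamma subunit genes Cacng8 and Cacng6, next to Cacng7, differed by 0.34 and -0.23 and were not called (adjusted p = 0.614 and 0.291).

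**Figure D5:**
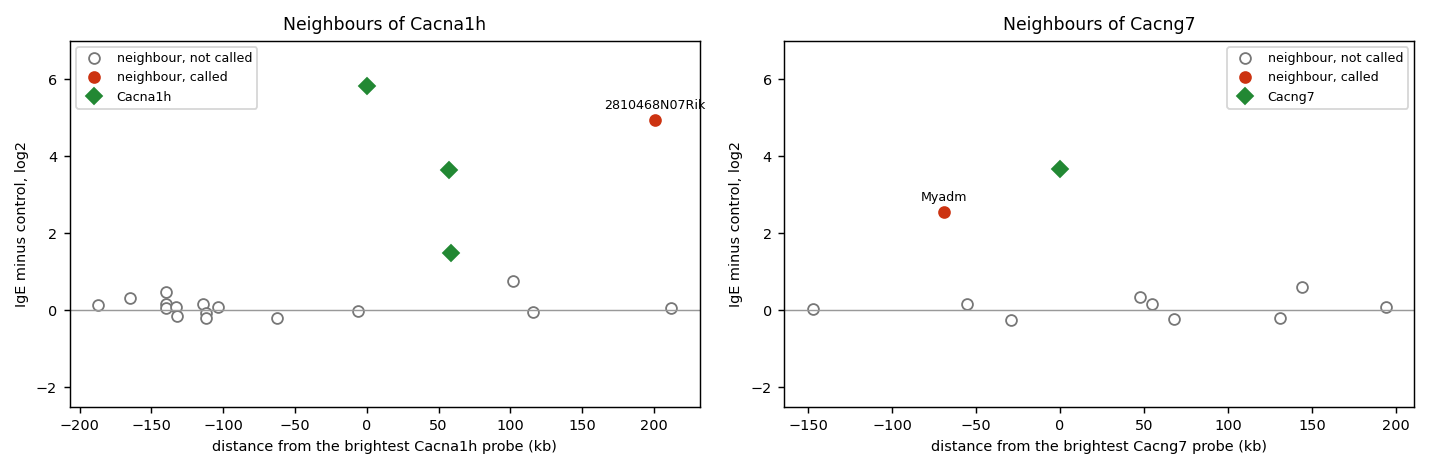
Difference between IgE and control lines (log2) of probes within 200 kb of Cacna1h (left) and Cacng7 (right), against the distance in kb from the brightest probe of each gene. The called neighbours drawn are 2810468N07Rik at 4.94 and Myadm at 2.55, and the others drawn lie between -0.26 and 0.75.

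Promoters are shown for the 5 members with an entry of which at least 1 probe separated the sides, as the 250 bases before the start of the gene in RefSeq on GRCm38.p6, 5′ to 3′ on the strand of the gene. Such an entry was found for 8 of the 10 members, and Cacna1h and Itpr1 had none. The windows are Cacng7 at chr7:3332575-3332824 (plus strand), Itpr2 at chr6:146502224-146502473 (minus strand), Itpr3 at chr17:27057054-27057303 (plus strand), Orai2 at chr5:136170657-136170906 (minus strand) and Orai3 at chr7:127769565-127769814 (plus strand). Capitals mark matches to the motifs searched on both strands, the NFAT core GGAAA, the GC box GGGCGG and the cAMP response element TGACGTCA.
Cacng7: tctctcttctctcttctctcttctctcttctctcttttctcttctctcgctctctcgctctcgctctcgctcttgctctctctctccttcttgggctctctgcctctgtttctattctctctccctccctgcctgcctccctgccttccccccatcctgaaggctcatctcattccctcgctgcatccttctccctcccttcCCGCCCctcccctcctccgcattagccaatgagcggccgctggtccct
Itpr2: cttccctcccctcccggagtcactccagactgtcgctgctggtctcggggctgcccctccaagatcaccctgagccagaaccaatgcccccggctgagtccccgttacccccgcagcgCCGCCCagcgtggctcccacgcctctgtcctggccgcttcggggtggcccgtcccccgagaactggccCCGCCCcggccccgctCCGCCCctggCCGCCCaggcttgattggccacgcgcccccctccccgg
Itpr3: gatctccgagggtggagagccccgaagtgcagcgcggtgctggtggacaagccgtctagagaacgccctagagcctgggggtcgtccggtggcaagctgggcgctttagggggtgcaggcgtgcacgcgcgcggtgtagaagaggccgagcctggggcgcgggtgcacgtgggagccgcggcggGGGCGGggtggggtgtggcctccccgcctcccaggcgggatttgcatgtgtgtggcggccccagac
Orai2: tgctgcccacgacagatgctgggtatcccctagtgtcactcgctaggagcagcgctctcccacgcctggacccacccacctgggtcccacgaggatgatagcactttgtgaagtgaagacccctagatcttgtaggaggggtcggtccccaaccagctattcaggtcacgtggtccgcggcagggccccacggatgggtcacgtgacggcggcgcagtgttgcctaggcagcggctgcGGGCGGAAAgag
Orai3: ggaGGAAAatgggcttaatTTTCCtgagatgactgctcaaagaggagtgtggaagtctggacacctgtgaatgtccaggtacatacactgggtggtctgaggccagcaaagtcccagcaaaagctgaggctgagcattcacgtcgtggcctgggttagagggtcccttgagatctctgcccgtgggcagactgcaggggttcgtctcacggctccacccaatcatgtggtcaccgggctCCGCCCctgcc
The GC box was found 1 time in Cacng7, 4 times in Itpr2 and 1 time each in Itpr3, Orai2 and Orai3, and it occurs in 32.7% of the 32851 promoters of this length. The NFAT core, found in 55.6% of all promoters, was found 1 time in Orai2, where it overlaps the GC box, and 2 times in Orai3, and not in the other 3 windows. The cAMP response element, found in 1.55%, was in none of the 5. Their GC content was 58.0%, 74.4%, 72.0%, 63.6% and 57.2% in the order shown, against a median of 52.4% over all promoters.

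Markers of other cell types were examined for their own level. Of 7 mast cell and basophil markers, 1 was well above background on all arrays, and the summed intensity of the list was 80.1 to 157 on IgE arrays and 111 to 231 on control arrays. Of 5 neuron markers on the array, 2 were well above background on all arrays, with sums of 15100 to 21600 on IgE arrays and 18700 to 26200 on control arrays. The T cell list summed to 2150 to 2820 and 2800 to 3520, and the myeloid list to 19200 to 29300 and 27600 to 32500. These sums were not scaled, so array brightness enters them. Most of the neuron sum came from Snap25 (14900 to 26100) and most of the myeloid sum from Itgam (18700 to 31800). In scaled level these 2 genes differed by 0.02 ± 0.16 and 0.10 ± 0.18 between the IgE and control lines. The part of these levels, and of the B cell markers, in the results was not tested.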

How the data were processed

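Each sample was labelled with Cy3 and hybridised to an Agilent mouse array. Per the file headers, the scans went through Feature Extraction 10.7.3.1 and probe positions are those of mm9. The deposited processed intensity is background-subtracted by the scanner software, per the file headers, and not normalized between arrays. The authors also deposited a table of log2 values, whose ranks matched the median pixel intensity of each array (Spearman 1, medians 6.04 to 6.05). How it was normalized is not given in the sources used here.

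The log2 processed intensity was scaled by the 75th percentile of each array. Control spots and outlier spots were left out, and spots of a probe were averaged. Tests covered each probe that some line had well above background on both of its arrays, which kept 29140 of 55681. The model (limma 3.58.1, R 4.3.3) had 1 coefficient for each line over all 8 arrays and every probe as its own feature, with two-sided tests and Benjamini-Hochberg adjustment over all probes. The fit was tested on simulated data. A gene outside the members is represented by its brightest probe, 19973 genes in all. A probe not well above background on any array of a side has a bound, set against the lowest signal well above background on each array (log2 -4.89 to -4.62). Precision is limited by the small number of arrays.

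The members and lists were chosen with earlier results of these data known. Named are all members, up to 16 called calcium genes, the 5 genes most like Cacna1h and Cacng7 each, and called neighbours within 200 kb, except those left out. Some calcium genes, markers and neighbours that were not called are named too. Exon positions of probes were not analysed here. Among the markers and the called neighbours, some results are left out of the text and figures. The alternatives tried are given with the closing observations.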

Additional observations from a re-analysis of the deposited data

How the results depend on the processing

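Of 2455 single values recomputed, 92 gained or lost a call and none reversed while called. Member calls between IgE and control lines were 4, and 2 when fitted over genes (10 tested in place of 17), 7 by adjusted p alone, and 4 to 5 without each array. They were 3 with normexp background correction, 3 with the stricter filter (16 tested) and 3 in the authors' deposited table. When fitted over genes, member calls were 3 in place of 5 for clone 18 against untransfected, 2 in place of 4 for clone 18 against IgM, and 2 in place of 4 for clone 41 against IgM. Normexp background correction gave 2 in place of 4 for clone 41 against untransfected and 1 in place of 0, Cacna1h, between the clones. Without untransfected replicate 2, Itpr1 was called between IgM and untransfected cells (range 0 to 1 over arrays left out). Calcium list calls, 16, were 9 with normexp, 9 with the stricter filter (96 genes tested), 10 in the authors' deposited table, 34 by adjusted p alone and 11 to 22 without each array. The cause was not tested, apart from the smaller number tested.

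Over all probes, 2619 calls between IgE and control lines became 1343 with normexp, 1515 with the stricter filter, 1526 in the authors' deposited table and 4963 by adjusted p alone. Replicate numbers are shared by title only, and the correlation of same-numbered deviations between lines ran from -0.07 to 0.35. With the replicate block, 4 member probes and 2691 of all probes were called. Fitted with the line as a random block (consensus correlation 0.0474), 4 member probes, 11 of the 16 calcium list genes and 2015 of all probes were called. Depth is limited by signal over background, which leaves bounds for dim probes, and by 2 arrays per line.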
